A study of Rattus norvegicus with 74 samples.

Results

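Chemokine and cytotoxic lymphocyte genes, 10 in all, were followed in rat liver. They were the chemokine ligand genes Cxcl13, Cxcl9, Cxcl10, Cxcl11, Cxcl12, Ccl5 and Ccl2 and the cytotoxic granule genes Prf1, Gzmb and Nkg7. All 10 of the 10 genes were measured, by 14 of the 20826 probe sets that the array annotation ties to 1 gene, among 14217 genes in all. They were chosen for how far their levels at a dose stood from those of the agent's own controls (0 mg/kg), so those differences, and the calls printed beside them, describe the members and support nothing about them. The livers came from Wistar Han rats at postnatal day 22, exposed in utero and after birth by oral gavage, as a label on every sample states, although the treatment text describes dosing with DE-71 and BDE-47 only. Phenobarbital was given at 0, 5 or 45 mg/kg, PCB126, a dioxin-like polychlorinated biphenyl, at labelled doses of 0, 10, 50 or 250 mg/kg, and both BDE-47, a single brominated diphenyl ether congener labelled PBDE-47, and DE-71, a commercial mixture of such ethers, at 50, 15, 0.1 or 0 mg/kg. For the latter pair the dams were dosed on gestation days 6 to 21 and the pups on postnatal days 12 to 21. Every group had 5 arrays except DE-71 at 50 mg/kg, which had 4, replicates 2 to 5. The animals' sex and litters are not given in the sources used here, so the p-values measure only the spread between these samples, which may be partly technical.

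Chemokines are small secreted proteins that direct the movement of leukocytes through receptors on their surface. CXCL13 draws B cells and follicular helper T cells into lymphoid tissue, and lymphotoxin signalling through NF-kB drives its gene there. CXCL9, CXCL10 and CXCL11 share the receptor CXCR3 on activated T cells and natural killer (NK) cells and are induced by interferon gamma, while CXCL12 is made constitutively by stromal cells and acts through CXCR4. In the liver, the resident macrophages (Kupffer cells), the sinusoidal endothelium and a large population of NK cells all take part in this traffic. Perforin (Prf1) and granzyme B (Gzmb) are the pore-forming protein and the protease that such cells release to kill targets, and Nkg7 encodes a membrane protein of the same granules.

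The 3 CXCR3 ligand genes of the set lie near one another on rat chromosome 14, and the gene of CXCL13 lies on the same chromosome. Their promoters are shown because these genes took different courses in the values that follow, with Cxcl13 lower, Cxcl9 and Cxcl10 higher and Cxcl11 at an even level. The RefSeq promoter table (GRCr8) held 8 of the 10 genes, and Ccl5 and Ccl2 are named only. Each run is the 250 bases before the annotated start, 5′ to 3′ on the gene's own strand: Cxcl13 at chr14:13917921-13918170 (minus strand), Cxcl9 at chr14:16006916-16007165 (plus), Cxcl10 at chr14:15988816-15989065 (plus) and Cxcl11 at chr14:15973478-15973727 (plus). Capitals mark matches, on either strand, to the interferon-stimulated response element (GAAA, any 2 bases, GAAA), TTCNNNGAA (the gamma-activated site), the NF-kB consensus or GCGTG (the core of the dioxin response element).
Cxcl13: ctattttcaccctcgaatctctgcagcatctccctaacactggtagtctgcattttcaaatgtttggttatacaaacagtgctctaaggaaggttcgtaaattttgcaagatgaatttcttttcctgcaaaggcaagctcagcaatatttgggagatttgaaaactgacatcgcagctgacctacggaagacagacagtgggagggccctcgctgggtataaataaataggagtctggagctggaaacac
Cxcl9: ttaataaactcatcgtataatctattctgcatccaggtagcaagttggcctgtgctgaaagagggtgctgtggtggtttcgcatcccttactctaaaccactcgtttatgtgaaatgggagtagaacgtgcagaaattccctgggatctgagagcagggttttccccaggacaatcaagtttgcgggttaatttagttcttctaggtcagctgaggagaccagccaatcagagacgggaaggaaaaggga
Cxcl10: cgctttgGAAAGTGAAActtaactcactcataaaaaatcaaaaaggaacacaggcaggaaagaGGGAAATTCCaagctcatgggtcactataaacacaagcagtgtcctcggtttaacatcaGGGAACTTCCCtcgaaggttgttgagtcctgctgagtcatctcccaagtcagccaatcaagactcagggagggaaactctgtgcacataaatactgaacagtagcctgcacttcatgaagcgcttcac
Cxcl11: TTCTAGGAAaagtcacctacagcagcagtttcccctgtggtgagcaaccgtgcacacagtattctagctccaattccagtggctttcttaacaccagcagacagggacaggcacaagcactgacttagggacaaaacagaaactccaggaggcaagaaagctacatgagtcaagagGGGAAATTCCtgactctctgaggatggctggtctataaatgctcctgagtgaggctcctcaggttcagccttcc

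The Cxcl10 promoter held 1 match to the interferon-stimulated response element, written GAAAGTGAAA, from 243 to 234 bases before the start. It also held 3 matches to the NF-kB consensus, of which the later pair overlap by all but 1 base (from 128 and from 127 bases before the start). The Cxcl11 promoter held 1 TTCNNNGAA match at the far end of the window and 1 NF-kB match from 74 to 65 bases before the start. Neither the Cxcl9 nor the Cxcl13 window held any of these motifs. Over all 33469 promoters of the same length, the interferon-stimulated response element was present in 3.41%, TTCNNNGAA in 7.67%, the NF-kB consensus in 6.33% and GCGTG in 25.9%. These matches are letters in a window and show no binding.

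Hepatocyte markers were high on every array, with Alb between 14.71 and 14.94 and Ttr between 13.96 and 14.31 on the log2 scale, as liver tissue gives. The array medians lay between 4.819 and 5.042. Prf1, Gzmb and Nkg7 lay below the lowest array median in all 72 samples, so these are dim probe sets. Among 656 pairs of arrays of the same agent, 4 were nearly identical. The pairs inside BDE-47 0 mg/kg (replicates 3 and 4) and inside DE-71 15 mg/kg (replicates 1 and 2) were averaged and each counts as 1 sample, which leaves 4 samples in each of these groups. The other pairs join BDE-47 15 mg/kg replicate 3 with 50 mg/kg replicate 3, and DE-71 15 mg/kg replicate 5 with 50 mg/kg replicate 4, so an array of each pair may not carry the dose on its label. Values without these 4 arrays stand beside the main results at the doses concerned. DE-71 50 mg/kg replicate 2 had the lowest mean correlation with its own group (r = 0.9783 against up to 0.9947), and results are also given without it.

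A gene was called at a Benjamini-Hochberg adjusted p below 0.05 in limma over all 14217 genes. Of the 10 members, 2 were called for phenobarbital 45 mg/kg (2.7% of all genes were called in that comparison), 1 for PCB126 250 mg/kg (0.0563% of all genes), 1 for BDE-47 50 mg/kg (4.03%) and, with DE-71, 1 at 15 mg/kg (1.24%) and 6 at 50 mg/kg (10.2%). Without DE-71 50 mg/kg replicate 2 the last count was 5 members (2.73% of all genes). No member was called by limma for phenobarbital 5 mg/kg (0.106% of all genes), BDE-47 15 mg/kg (0.823%), PCB126 50 mg/kg (0.00703%), PCB126 10 mg/kg, BDE-47 0.1 mg/kg or DE-71 0.1 mg/kg, the last 3 with 0% of genes called. At an unadjusted p below 0.05 the members in those 6 comparisons numbered 0, 3, 1, 1, 0 and 2, in the order named. Of all 14217 genes, 937, 1592, 800, 379, 457 and 908 passed the same unadjusted threshold. The median log2 difference over the 10 members was 0.49 for DE-71 50 mg/kg, beside 0 over all genes, and -0.05 for BDE-47 50 mg/kg, beside -0.02. The members were picked with these differences in view, so nothing is read from the counts.

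**Figure D1:**
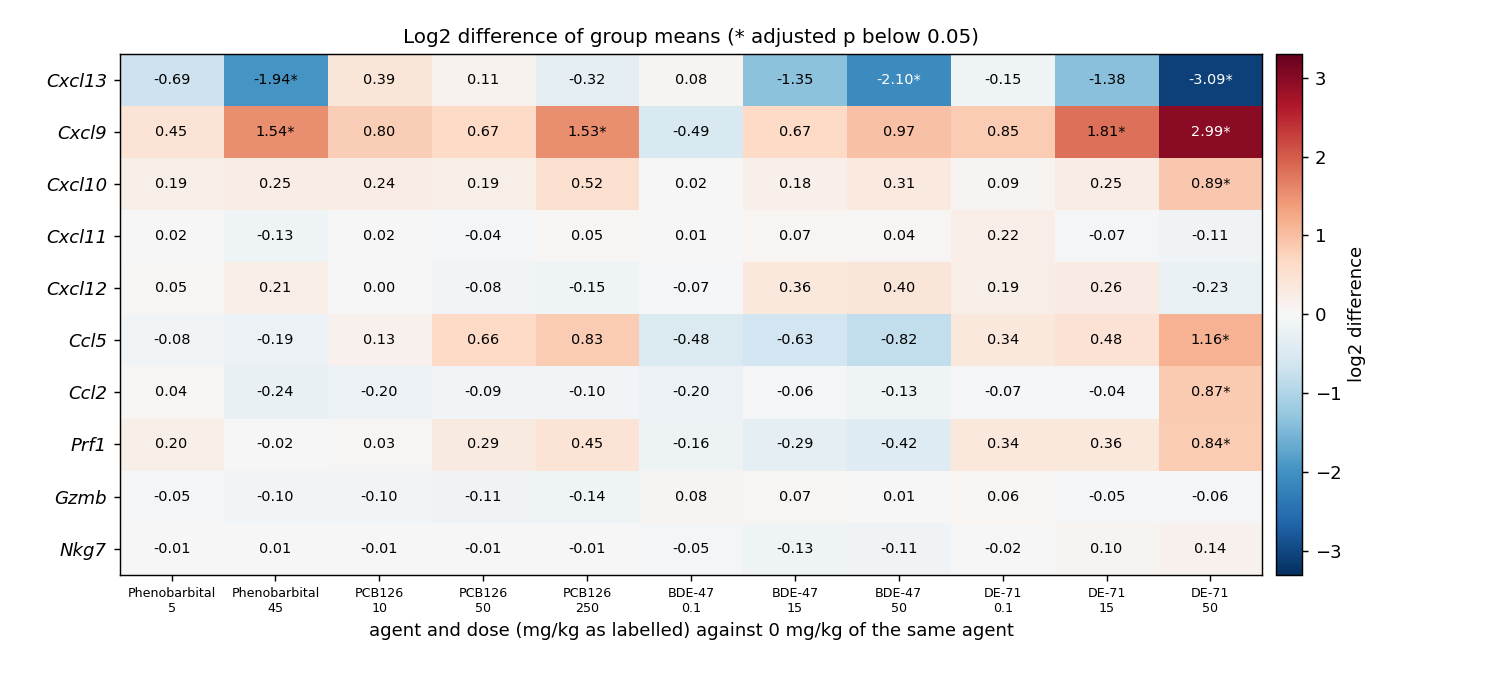
Log2 difference of group means for the 10 members (rows) at each agent and dose from the agent's own 0 mg/kg group (columns), with red for higher, blue for lower and an asterisk for an adjusted p below 0.05 in limma. The strongest colours lie in the Cxcl13 and Cxcl9 rows, from -3.09 to 2.99, and the Cxcl11, Gzmb and Nkg7 rows are pale throughout.

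Cxcl13, the B cell attracting chemokine, had lower levels at the high doses of 3 of the 4 agents. The control samples of DE-71 read 7.81, 8.16, 8.87, 8.74 and 8.91 on the log2 scale, and the 50 mg/kg samples read 4.40, 5.52, 7.57 and 4.12 in replicates 2 to 5. All 50 mg/kg samples were under the lowest control, but they spread over a wide range (mean 5.40 ± 1.56, SD, n = 4, against 8.50 ± 0.49, n = 5). The difference of -3.09 (95% interval -3.96 to -2.23) is 8.53-fold lower, and it was -2.76, or 6.77-fold lower, without replicate 2. The highest of these samples, replicate 4, is the array that nearly matches a 15 mg/kg array, and without both arrays of that pair the Cxcl13 difference was -3.81. In bulk liver, fewer cells that make a transcript and less of it per cell cannot be told apart, here and in all results that follow.

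For BDE-47, the Cxcl13 controls read 8.54, 8.52, 8.16 and 8.22 and the 50 mg/kg samples 5.79, 6.15, 6.70, 6.36 and 6.33. The groups were far apart and both were tight, and the difference was -2.10 (95% interval -2.96 to -1.23), 4.28-fold lower, or -2.21 without the near-identical arrays. At 15 mg/kg the Cxcl13 values were 7.39, 6.32, 6.70, 6.93 and 7.73, again all under the controls, with a difference of -1.35 (-1.27 without the near-identical arrays) that was not called. At 0.1 mg/kg the mean was 8.44 ± 0.19 (n = 5), beside 8.36 ± 0.20 (n = 4) in the controls.

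At 15 mg/kg of DE-71, Cxcl13 read 5.98, 8.13, 6.73 and 7.62, where the first value is the mean of the near-identical replicates 1 and 2. One of these samples lay among the controls, and the difference of -1.38 was not called (-1.55 without the arrays that are near-identical across groups and -1.72 without 15 mg/kg replicate 3, both called). At 0.1 mg/kg the Cxcl13 values were 9.36, 6.11, 9.32, 7.91 and 9.05. Replicate 2 stood lowest, the SD was 1.39, and the mean of 8.35 lay beside a control mean of 8.50.

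Phenobarbital at 45 mg/kg gave Cxcl13 values of 6.45, 7.01, 7.26, 6.69 and 6.45, against 8.51, 8.56, 8.36, 9.21 and 8.91 in its controls. No sample overlapped, and the difference was -1.94 (95% interval -2.75 to -1.12), 3.83-fold lower. The 5 mg/kg samples were 8.87, 7.83, 7.90, 7.60 and 7.92, between the other groups but for replicate 1. With PCB126, Cxcl13 stood at means of 8.59, 8.98, 8.70 and 8.27 at 0, 10, 50 and 250 mg/kg, with SDs of 0.17 to 0.56 (n = 5 each). Its difference of -0.32 at the top dose had an interval of -1.14 to 0.49, which includes 0.

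Cxcl9, a CXCR3 ligand, had higher levels at the top doses, most of all with DE-71. The DE-71 controls read 4.72, 5.34, 4.71, 4.75 and 5.31, and the 50 mg/kg samples 9.08, 7.37, 6.80 and 8.58 in replicates 2 to 5. Every treated sample exceeded every control, with replicate 2 the highest. The difference was 2.99 (95% interval 2.28 to 3.71), 7.97-fold higher, and 2.62, or 6.15-fold higher, without replicate 2. Leaving out the near-identical arrays gave 3.38.

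The middle DE-71 dose already set Cxcl9 apart from the controls, at 6.19, 6.78, 7.24 and 6.88 for 15 mg/kg. The difference was 1.81 (95% interval 1.10 to 2.52), 3.50-fold higher, and 1.77 without the near-identical arrays. At 0.1 mg/kg the values were 5.44, 6.72, 5.86, 5.57 and 5.47, all above the highest control, and the difference of 0.85 was not called.

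The phenobarbital controls read 5.89, 5.95, 5.45, 5.28 and 4.50 for Cxcl9 and the 45 mg/kg samples 7.65, 7.10, 7.03, 6.27 and 6.69. The groups did not overlap, and the difference was 1.54 (95% interval 0.87 to 2.21), 2.91-fold higher. For PCB126 the controls were 5.69, 5.19, 5.05, 4.94 and 4.71 and the 250 mg/kg samples 6.94, 7.39, 5.44, 7.02 and 6.43. One treated sample, replicate 3, fell among the controls. The Cxcl9 difference of 1.53 (95% interval 0.86 to 2.20) was called with all samples, but it lost its call in 8 of 10 fits that left out 1 sample, where it ran from 1.34 to 1.83.

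With BDE-47 the Cxcl9 groups overlapped, although all 5 samples at 50 mg/kg lay above the control mean of 5.62. The controls were 5.66, 6.35, 5.44 and 5.05 and the 50 mg/kg samples 7.30, 6.09, 6.31, 7.43 and 5.85. Of the 5 treated samples, 3 lay below the highest control, and the difference of 0.97 (95% interval 0.26 to 1.68, and 1.05 without the near-identical arrays) was not called. It was 1.01 and called with all 74 arrays as separate samples (adjusted p = 0.049 in limma) and with a replicate block over them (adjusted p = 0.037). A second Cxcl9 probe set gave close values to the first: 2.88 beside 2.99 for DE-71 50 mg/kg, 1.81 beside 1.81 for DE-71 15 mg/kg, 1.48 beside 1.54 for phenobarbital 45 mg/kg and 1.65 beside 1.53 for PCB126 250 mg/kg. In the fit over all single-gene probe sets neither was called for PCB126.

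**Figure D2:**
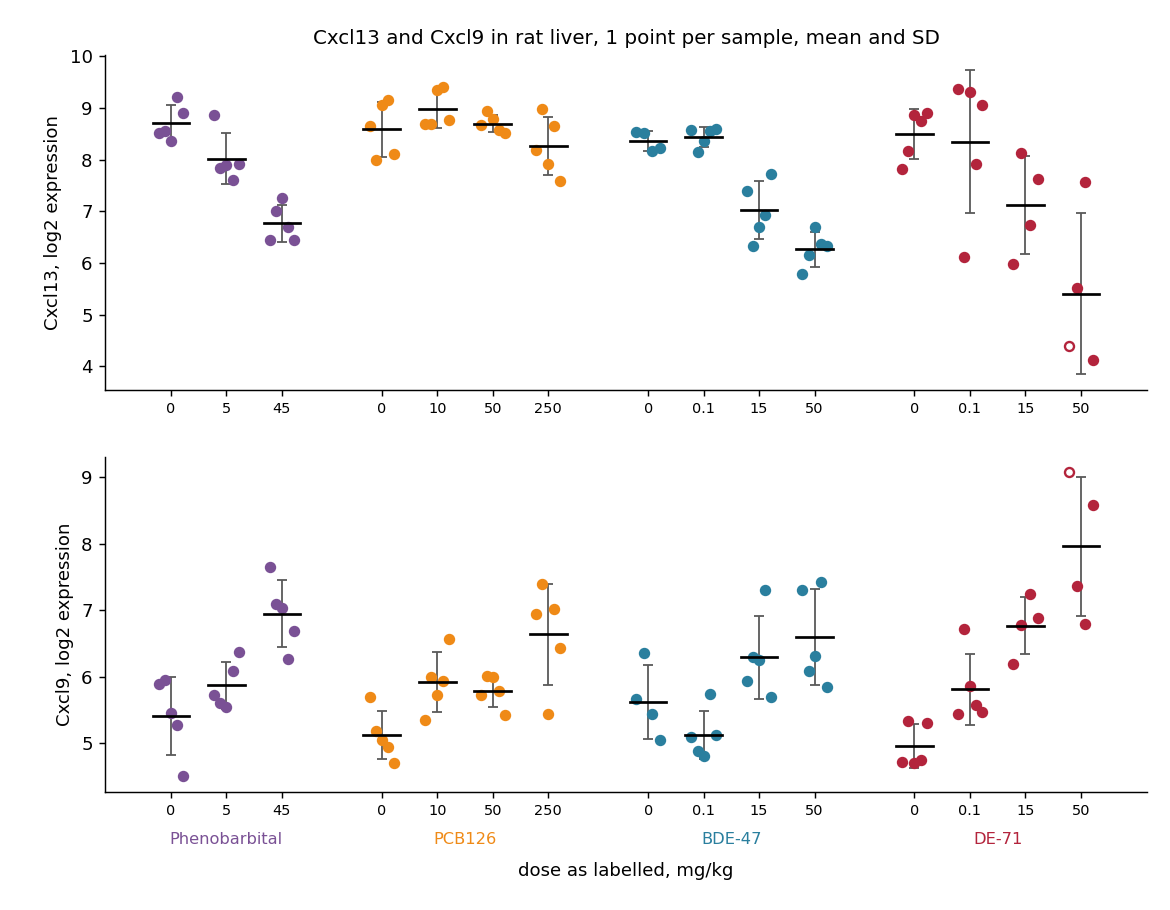
Log2 expression of Cxcl13 (top) and Cxcl9 (bottom) in each of 72 samples by agent and dose in mg/kg as labelled, with black bars for group means, grey bars for SD, and an open circle for DE-71 50 mg/kg replicate 2. The top-dose points of Cxcl13 lie below the controls for phenobarbital, BDE-47 and DE-71, to a mean of 5.40 at DE-71 50 mg/kg, where Cxcl9 reaches its highest group mean of 7.96.

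Cxcl10, another interferon-induced CXCR3 ligand, moved less than Cxcl9. In the DE-71 controls it read 4.80, 4.75, 4.62, 4.53 and 4.91, and at 50 mg/kg 5.54, 5.46, 5.16 and 6.27. The groups did not overlap, with a difference of 0.89 (95% interval 0.48 to 1.29), 1.85-fold higher, and 0.91 without replicate 2 or 1.04 without the near-identical arrays. In the other agents no Cxcl10 difference was called. The largest was 0.52 (95% interval 0.13 to 0.90) at 250 mg/kg of PCB126, where the samples of 5.73, 5.18, 5.55, 5.18 and 5.40 all exceeded the controls of 4.66 to 4.99.

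Cxcl11, the remaining CXCR3 ligand, kept between 8.77 and 9.62 in all 72 samples. Its group means ran from 9.07 to 9.39, and the largest dose difference in size was 0.22. Cxcl12, the stromal ligand of CXCR4, lay between 11.06 and 12.30, with none of its dose differences called in the main fit. Its BDE-47 values at 50 mg/kg, 11.84 to 12.16, all exceeded the controls of 11.42 to 11.81, by 0.40 on average (95% interval 0.12 to 0.69), or 0.39 without the near-identical arrays. This difference was called in a fit of only these 2 groups (0.40, adjusted p = 0.04 in limma). It was also called with all 74 arrays as separate samples (0.44, adjusted p = 0.031) and with a replicate block over them (0.44, adjusted p = 0.025). In DE-71 at 50 mg/kg the difference had the other sign, -0.23 (95% interval -0.52 to 0.05), or -0.34 without the near-identical arrays. A second Cxcl12 probe set gave 0.12 and -0.32 for the same comparisons, and the third, with an interval over 2 log2 units wide, gave 0.56 and -0.01.

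Ccl5 encodes a chemokine, a ligand of CCR1, that T cells, NK cells and macrophages release. In the DE-71 controls it read 5.83, 6.85, 6.49, 6.65 and 6.43 and the 50 mg/kg samples 8.0, 7.93, 6.86 and 7.65. Every treated sample lay above every control, the lowest (replicate 4, one of the near-identical arrays) only just. The difference was 1.16 (95% interval 0.63 to 1.69), 2.23-fold higher, and 1.03 without replicate 2 or 1.41 without the near-identical arrays. In a fit of only the arrays of these 2 groups, Cxcl13, Cxcl9 and Prf1 were still called and Cxcl10, Ccl5 and Ccl2 were not.

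With BDE-47 the Ccl5 values leaned the opposite way, from 7.46, 7.33, 6.59 and 6.30 in the controls to 6.14, 6.21, 5.77, 6.55 and 5.79 at 50 mg/kg. The groups overlapped at a single treated sample, and the difference of -0.82 (95% interval -1.35 to -0.29, and -0.74 without the near-identical arrays) was not called. It was called in several other settings and without control replicate 5 or 50 mg/kg replicate 4, at -1.03 and -0.94. PCB126 gave Ccl5 means of 6.90, 7.04, 7.56 and 7.74 at its 4 doses, and the top dose, 7.43 to 8.09, stood clear of the controls, 6.71 to 7.25, by 0.83 (95% interval 0.33 to 1.33), which was not called. In a fit of only the arrays of these 2 PCB126 groups, Ccl5 was called and Cxcl9 was not. Phenobarbital gave -0.19 at 45 mg/kg, with 1 sample at 7.50 above all its controls and 4 at 5.90 to 6.45.

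Ccl2, which draws monocytes through CCR2, was dim in nearly all samples. At 50 mg/kg of DE-71 it read 5.92, 4.30, 3.33 and 3.45, against 3.16, 3.63, 3.20, 3.63 and 3.27 in the controls. The difference of 0.87 (95% interval 0.40 to 1.34) rested on replicate 2, and without it the value was 0.31 (95% interval -0.06 to 0.68) and was not called. Without the near-identical arrays it was 1.18. In the other agents and doses the Ccl2 differences ran from -0.24 to 0.04.

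Prf1, the perforin gene, gave 3.55, 3.56, 3.44, 3.67 and 3.50 in the DE-71 controls and 4.57, 4.58, 4.12 and 4.25 at 50 mg/kg. The groups stood well apart and the controls were tight (SD 0.08). The difference was 0.84 (95% interval 0.51 to 1.16), 1.79-fold higher, and 0.77 without replicate 2 or 0.92 without the near-identical arrays. The middle and low doses gave 0.36 and 0.34, neither called, with the 15 mg/kg samples of 3.94, 3.82, 3.79 and 4.08 also above every control.

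In BDE-47 the Prf1 controls read 4.35, 4.23, 4.21 and 3.46 and the 50 mg/kg samples 3.74, 3.58, 3.54, 3.87 and 3.48. Replicate 5 of the controls lay below all treated samples, and the difference of -0.42 (95% interval -0.74 to -0.10, and -0.40 without the near-identical arrays) was not called. Without that control sample it was -0.62 and called. PCB126 at 250 mg/kg gave a Prf1 difference of 0.45 (95% interval 0.15 to 0.76), not called, with samples of 4.28 to 4.65 against 3.85 to 4.28.

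The granule genes Gzmb and Nkg7 were level. Gzmb ran from 3.28 to 4.13 and Nkg7 from 3.65 to 4.59 over all 72 samples, and neither had a dose difference above 0.14 in size. At 50 mg/kg of DE-71 the Gzmb difference was -0.06 (95% interval -0.25 to 0.13) and that of Nkg7 0.14 (95% interval -0.09 to 0.37). A second single-gene Gzmb probe set gave 0, and 1 further Gzmb probe set, shared with another gene, was not used. So of the 3 cytotoxic genes, Prf1 alone passed the threshold in this comparison, and differences among the 3 were not tested.

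**Figure D3:**
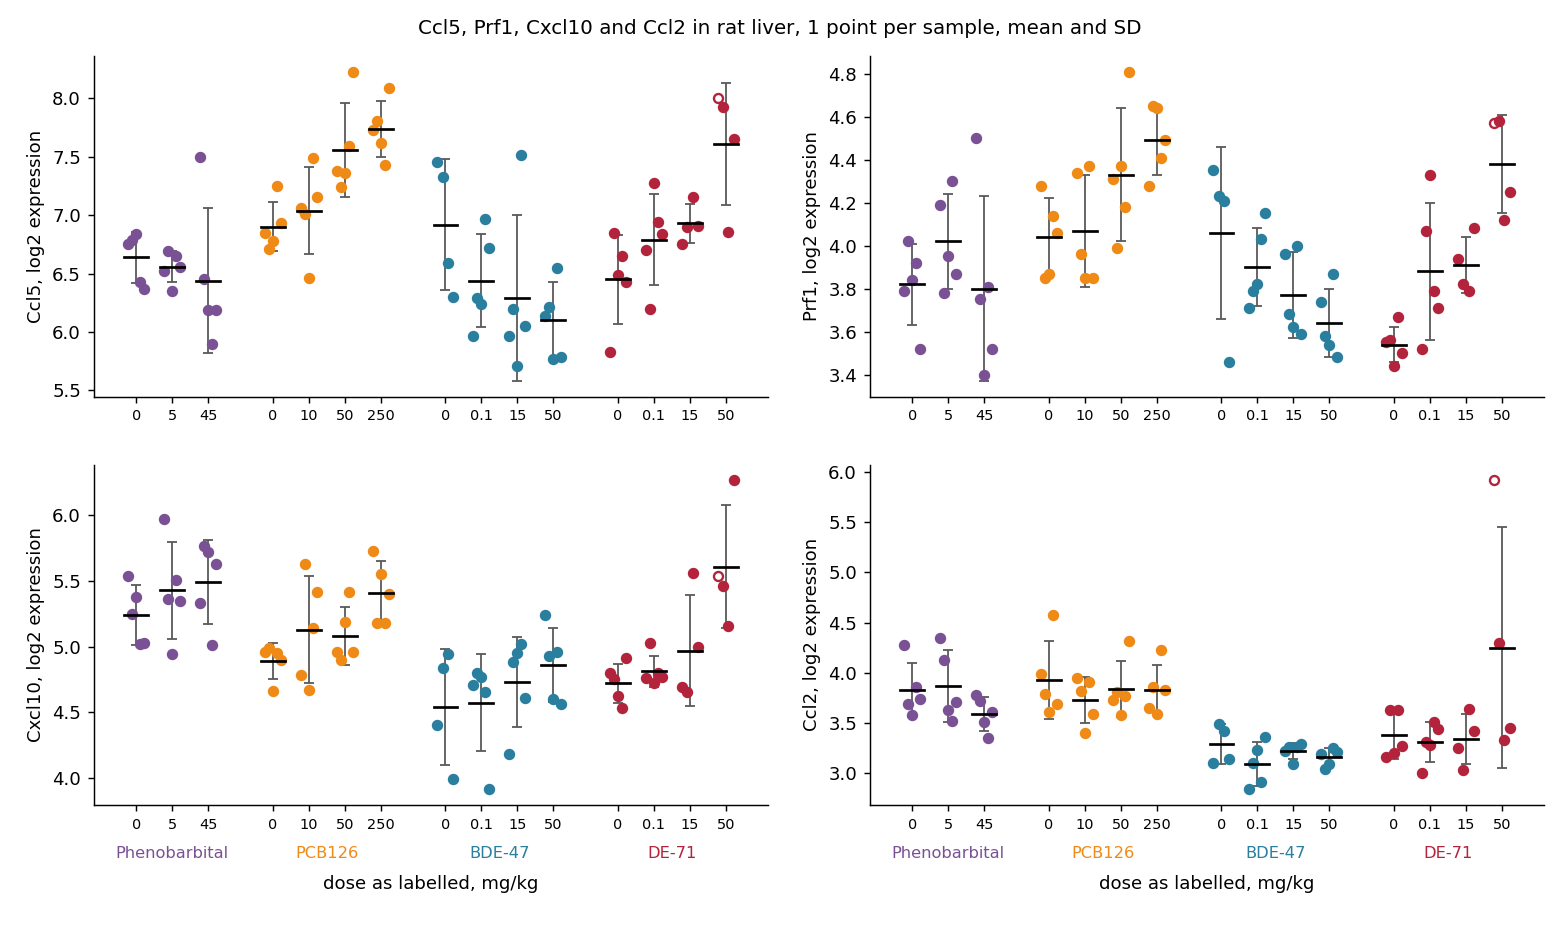
Log2 expression of Ccl5, Prf1, Cxcl10 and Ccl2 in each sample by agent and dose in mg/kg as labelled, with black bars for means, grey bars for SD and an open circle for DE-71 50 mg/kg replicate 2. The top-dose means of Ccl5 and Prf1 lie above the controls for DE-71 and PCB126 and below them for BDE-47, and for Ccl2 replicate 2, at 5.92, stands above the rest.

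The response to DE-71 was then set against that to BDE-47 at the matched doses, as the difference of the 2 dose-against-control differences, to ask whether the mixture and the single congener differed. At 50 mg/kg limma called 2 of the 10 members (0.12% of all genes), Ccl5 and Prf1, both higher with DE-71. The Ccl5 responses differed by 1.98 (95% interval 1.24 to 2.73, adjusted p = 0.0079 in limma). The Prf1 responses differed by 1.26 (95% interval 0.80 to 1.72, adjusted p = 0.0055 in limma). For both genes all 4 DE-71 samples lay above their control mean and all 5 BDE-47 samples below theirs. The members had been picked on the responses that enter this difference, so the p-values do not stand apart from that choice.

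Without DE-71 50 mg/kg replicate 2, the Ccl5 difference was 1.86 and no longer passed (adjusted p = 0.054 in limma), while that of Prf1 was 1.20 (adjusted p = 0.037), with 0.0141% of all genes called. Without the near-identical arrays the Ccl5 and Prf1 differences were 2.16 and 1.32 (adjusted p = 0.003 and 0.0049 in limma). When only the arrays of the 4 groups were fitted, none of the 14217 genes passed, with adjusted p = 0.11 for Ccl5 and 0.056 for Prf1 in limma.

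Cxcl9 differed by 2.02 between the agents at 50 mg/kg (95% interval 1.02 to 3.03) and narrowly missed the threshold (adjusted p = 0.069 in limma), which it passed without the near-identical arrays (2.33, adjusted p = 0.028) and without BDE-47 50 mg/kg replicate 4 (2.23) or DE-71 50 mg/kg replicate 3 (2.22) or 4 (2.41). For Cxcl13 the difference was -0.99 with an interval of -2.22 to 0.23, wide enough to hold no difference or one of 2 log2 units. Cxcl10 differed by 0.57 (95% interval -0.01 to 1.15), Ccl2 by 1.0 (0.33 to 1.67), Cxcl12 by -0.63 (-1.03 to -0.23), Cxcl11 by -0.14 (-0.51 to 0.23), Gzmb by -0.07 (-0.34 to 0.20) and Nkg7 by 0.25 (-0.08 to 0.57), none of them called. Without DE-71 50 mg/kg replicate 4, Ccl2 was called too, at 1.31.

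No member was called in this comparison at 15 mg/kg (0.0141% of all genes called) or at 0.1 mg/kg (0%). At an unadjusted p below 0.05 there were 3 of the 10 members at each dose, beside 727 and 644 of all 14217 genes. At 15 mg/kg the differences were 1.11 for Ccl5 (95% interval 0.36 to 1.86), 0.65 for Prf1 (0.20 to 1.11) and 1.13 for Cxcl9 (0.13 to 2.14). At that dose Cxcl13 differed by -0.04 (95% interval -1.26 to 1.19), an interval too wide to show that the agents acted alike.

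**Figure D4:**
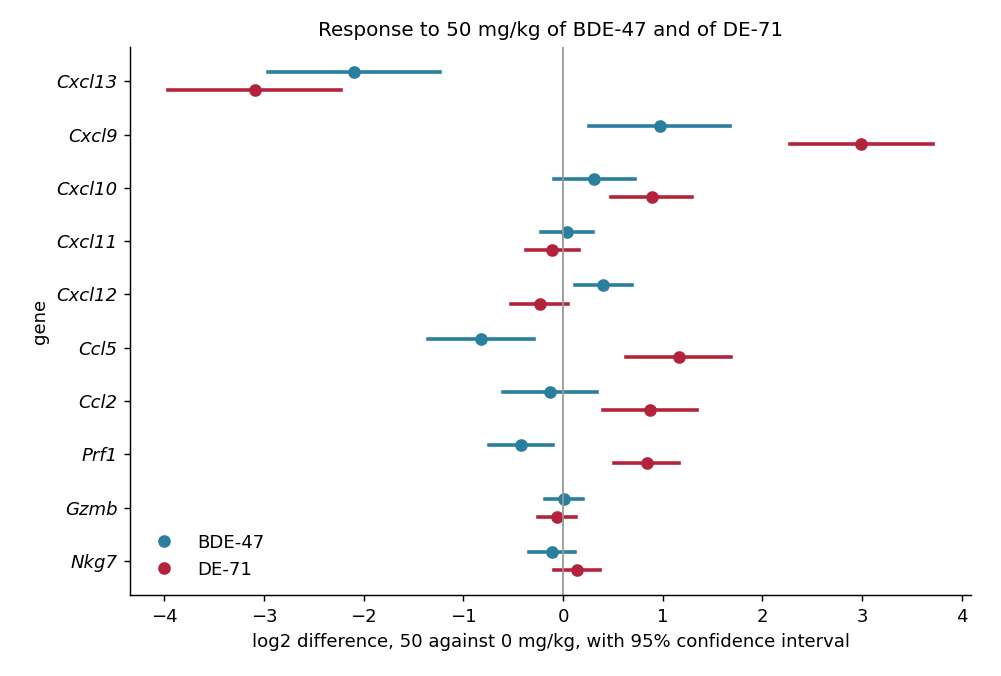
Log2 difference of 50 against 0 mg/kg for each member with BDE-47 (blue) and DE-71 (red), where points are the differences and lines their 95% confidence intervals from limma. The intervals of Ccl5 and Prf1 lie on opposite sides of 0 for the 2 agents, at -0.82 and 1.16 for Ccl5, while those of Cxcl13 both lie below 0.

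Steps compared neighbouring doses above 0 mg/kg within an agent. The members had been picked on the dose differences that make up these steps, so their p-values and calls do not stand apart from that choice. No member was called by limma in any of the 7 steps. The share of all genes called was 0.682% from 5 to 45 mg/kg of phenobarbital and 0% and 0.0211% in the PCB126 steps. It was 1.06% and 0% in the BDE-47 steps from 0.1 to 15 and from 15 to 50 mg/kg. In the same DE-71 steps it was 0.429% and 0.197%. At an unadjusted p below 0.05 there were 2 members for phenobarbital, beside 1043 of all 14217 genes. There was 1 member in each PCB126 step, beside 590 and 824 genes. The BDE-47 steps had 3 and 0 members, beside 1693 and 427 genes. The DE-71 steps had 3 and 7, beside 1626 and 1946 genes. Cxcl13 stood lower by 1.25 at 45 than at 5 mg/kg of phenobarbital, by 1.43 at 15 than at 0.1 mg/kg of BDE-47 and by 1.71 at 50 than at 15 mg/kg of DE-71, with adjusted p = 0.2, 0.065 and 0.1 in limma. From 15 to 50 mg/kg of BDE-47 the Cxcl13 step was -0.75 (95% interval -1.57 to 0.06).

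The calls in the DE-71 step from 15 to 50 mg/kg changed with the samples kept, among them the array pair that joins those doses. Without both arrays, 4 members were called by limma, beside 305 of all 14217 genes, where 28 genes were called with every sample. These members were Cxcl13 (-2.27, adjusted p = 0.0037), Cxcl9 (1.61, adjusted p = 0.03), Cxcl12 (-0.65, adjusted p = 0.034) and Ccl2 (1.25, adjusted p = 0.0076). Without replicate 4 of 50 mg/kg alone, 5 were called, the fifth being Cxcl10 at 0.78 (adjusted p = 0.04). Cxcl13 alone was called without 15 mg/kg replicate 1 (-2.09) and Ccl2 alone without 50 mg/kg replicate 5 (1.18). Without replicate 2 none was called, and 0.00703% of all genes were. Over the fits that left out 1 sample, the genes called in this step ran from 1 to 531. In the lower steps, Cxcl13 was called from 0.1 to 15 mg/kg of DE-71 without 0.1 mg/kg replicate 2 (-1.79), and Cxcl9 over the same BDE-47 doses without 0.1 mg/kg replicate 4 (1.32). Over such fits, 22 to 187 genes were called in that DE-71 step and 90 to 179 in that BDE-47 step.

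The members also varied between samples of a group. Deviations from the group means over 72 samples were compared between genes, with no p attached. They do not use the dose differences as long as each array carries the dose on its label. The arrays that are near-identical across groups were kept here, so a wrong label among them would bring a dose difference into these deviations. All genes were read on the same arrays, so differences between whole arrays can enter these comparisons. Ccl5 and Prf1 were the most alike pair of members (Pearson r = 0.62, Spearman rho = 0.53, and r = 0.61 without DE-71 50 mg/kg replicate 2), followed by Cxcl9 with Ccl5 (r = 0.45, rho = 0.41) and Cxcl9 with Cxcl10 (r = 0.43, rho = 0.46). Cxcl13 leaned the other way from Cxcl10 (r = -0.33, rho = -0.35) and from Cxcl9 (r = -0.30, rho = -0.14).

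Over all genes, the closest to Ccl5 were Fcer1g (r = 0.75), Gzma (r = 0.74) and Tyrobp (r = 0.73). Fcer1g and Tyrobp encode signalling adaptors of NK and myeloid cells and Gzma encodes granzyme A. Those closest to Prf1 were Ccl5, the adaptor gene Hcst (r = 0.59) and Cap1 (r = 0.58). Cxcl9 was closest to the immunoproteasome gene Psmb9 (r = 0.62) and to the interferon-induced genes Herc6 and Usp18 (r = 0.56 each). Cxcl13 was closest to Srpx (r = 0.70), Adam11 and Steap3 (r = 0.65 each). For Ccl2 the closest genes were Cd83 (r = 0.73), Neurl3 (r = 0.68) and Tusc2 (r = 0.65), and these fell to 0.50, 0.42 and 0.36 without DE-71 50 mg/kg replicate 2.

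Of the receptor genes of these chemokines, 9 were analysed. At 50 mg/kg of DE-71 none of the 9 was called, beside 10.2% of all genes, with a median difference of 0.09. Cxcr5, the CXCL13 receptor, read 7.78 ± 0.20 (SD, n = 5) and 7.80 ± 0.17 (n = 4) at 0 and 50 mg/kg, and Cxcr3 read 3.46 ± 0.22 and 3.67 ± 0.23. With BDE-47 only Ccr1, a CCL5 receptor on myeloid cells, was called, at 15 and 50 mg/kg, beside 0.823% and 4.03% of all genes. It fell by 0.71 and by 0.61 (adjusted p = 0.023 and 0.027 in limma), from a dim control mean of 4.14. Of 24 other chemokine ligands measured, only Ccl4 was called at 50 mg/kg of DE-71, beside 10.2% of all genes. Ccl4 encodes a chemokine released by NK cells and macrophages. It rose by 0.54 (95% interval 0.30 to 0.79, adjusted p = 0.002 in limma) and was also called without replicate 2 (0.45). Only Ccl6 was called at 50 mg/kg of BDE-47, beside 4.03% of all genes, and it fell by 0.83 (adjusted p = 0.014 in limma). No other ligand of that list was called at the top dose of any agent, by limma.

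Genes of the pathways that drive these chemokines were read next, beside 10.2% of all genes called for DE-71 50 mg/kg and 4.03% for BDE-47 50 mg/kg. Of 18 measured genes of the interferon gamma response, 4 rose at 50 mg/kg of DE-71: the immunoproteasome genes Psmb8 (1.40, adjusted p = 0.0027 in limma) and Psmb9 (0.82, adjusted p = 0.0066), the GTPase gene Gbp2 (0.93, adjusted p = 0.021) and B2m (0.28, adjusted p = 0.015). None of the 18 was called without replicate 2, so these calls moved with that array. The list median was 0.21, and 0.15 without it, beside 0 over all genes. The transcription factor gene Irf8 fell by 0.56 at 50 mg/kg of BDE-47 (adjusted p = 0.048 in limma). Of 10 genes that control lymphoid chemokines, Ltb (lymphotoxin beta, 0.62) and Ltbr (its receptor, 0.49) rose at 50 mg/kg of DE-71 (adjusted p = 0.011 and 0.013 in limma), though not without replicate 2, and Nfkb2, of the NF-kB pathway that lymphotoxin uses, fell by 0.41 at 45 mg/kg of phenobarbital (adjusted p = 0.045). None of this list was called at the top dose of BDE-47. The part of these genes in the Cxcl13 values was not tested.

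Markers of the cells that carry these genes were read in the same samples. Of 20 cytotoxic and NK cell genes measured beside the members, 3 rose at 50 mg/kg of DE-71, where 10.2% of all genes were called, and none fell: the NK receptor gene Klrd1 (0.89, 95% interval 0.53 to 1.26, adjusted p = 5.7e-04 in limma), the Fc receptor gene Fcgr3a (0.88, adjusted p = 0.0043) and Klrb1a (0.33, adjusted p = 0.047). Klrd1 alone was still called without replicate 2, at 0.62. The mean of the 20 genes ran from 4.48 to 4.93 at 50 mg/kg and from 4.27 to 4.62 in the controls, so the groups overlapped. Of 17 T cell markers only Tcf7 was called, and it fell by 0.80 (adjusted p = 0.0047), though without replicate 2 it was not called, at -0.63, while Cd3e read 4.63 ± 0.08 at 0 and 4.76 ± 0.08 at 50 mg/kg and Cd8a 3.71 ± 0.12 and 3.63 ± 0.28. Gzma and Ncr1, markers of cytotoxic and NK cells, were not called. The part of cell numbers in the Ccl5 and Prf1 values was not tested.

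With BDE-47 at 50 mg/kg, none of the 20 cytotoxic genes was called, and the list ran from 4.26 to 4.41 beside 4.30 to 4.46 in the controls. Markers of Kupffer cells and macrophages were lower there, with 6 of 12 called, beside 4.03% of all genes: C1qc (-0.73, adjusted p = 5.6e-04 in limma), C1qa (-0.60), Clec4f (-0.80) and Csf1r (-0.68), with Cd163 and Cd68 besides. The mean of the 12 markers ran from 7.64 to 8.04, below the 8.17 to 8.58 of the controls, in the samples where Ccl5 leaned lower. None of the 12 was called at 50 mg/kg of DE-71, where the list ran from 8.06 to 8.30 beside 7.85 to 8.30. The response of C1qc was 0.94 higher with DE-71 than with BDE-47 (adjusted p = 0.03 in limma), although not without replicate 2. The part of macrophage content in the Ccl5 difference between the agents was not tested.

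B cell markers were rarely called where Cxcl13 was lower. Of 10 measured, only Cd74, an antigen presentation gene also expressed in macrophages, was called. It fell by 1.29 at 50 mg/kg of BDE-47 (adjusted p = 0.017 in limma), beside 4.03% of all genes called there. Its response differed between DE-71 and BDE-47 by 2.20 (adjusted p = 0.03), although not without replicate 2. Ms4a1, the B cell gene of CD20, read 4.33 ± 0.33 and 4.21 ± 0.12 at 0 and 50 mg/kg of BDE-47 and 4.58 ± 0.20 and 4.60 ± 0.34 in DE-71. Cd79b read 4.12 ± 0.15 and 4.17 ± 0.20, and 4.46 ± 0.16 and 4.47 ± 0.21. No B cell marker was called for phenobarbital at 45 mg/kg by limma.

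Some other tissue markers were called at 50 mg/kg of DE-71, again beside 10.2% of all genes. Of 13 stellate cell and fibroblast genes, Des (0.34) and Rgs5 (0.85) rose and Lrat (-0.58) and Pdgfrb (-0.78) fell. Of 11 endothelial genes, Kdr fell by 0.49. Of 9 hepatocyte genes, Cps1 fell by 0.47 and Serpina1 by 0.22, and of 8 erythroid genes Rhag rose by 0.37. None of these was called without replicate 2 but Cps1, at -0.30. Epcam, 1 of 6 cholangiocyte markers and also a gene of immature hepatocytes, rose in the groups where Cxcl13 was lower, by 0.74 with phenobarbital 45 mg/kg and by 1.35 and 1.28 with 50 mg/kg of BDE-47 and DE-71 (adjusted p = 0.019, 6.4e-06 and 1.3e-05 in limma), and its part in the Cxcl13 values was not tested. Neutrophil markers (6 measured) and pancreas and gut markers (11 measured) had no call in limma at the top dose of any agent.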

How the data were processed

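RNA from pieces of the left liver lobe was read on rat expression arrays. The deposited log2 values were made by the authors with RMA, per the submitters' processing notes, with no version given. RMA narrows differences between dim probe sets. Levels were compared only within an agent, since no source states a joint normalization, and between agents only differences from the agent's own controls were compared. A gene was taken as its brightest probe set with 1 gene symbol. Near-identical arrays of a group were averaged, which gave 72 samples from 74 arrays. All 15 groups were fitted at once in limma 3.58.1 (R 4.3.3), with Benjamini-Hochberg adjustment over 14217 genes in each comparison and a call below 0.05. The scripts were tested on simulated data. The members and the gene lists were chosen with earlier results of these data known, and likeness to other genes was ranked by Pearson r, naming the top 3. List genes were named when called at a top dose, with a few defining markers besides. Alternatives were the arrays kept, the probe set rule, a filter on dim genes, normalization, the arrays in the fit, the variance model, array weights, a replicate block and each sample left out. Group size limits the precision.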

Additional observations from a re-analysis of the deposited data

Results flagged for a closer look

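In 6 of 150 groups of member values, 1 sample stood apart from the rest of its group by Dixon's criterion, where chance gives about 1 in 20. Cxcl13 read 8.87 in phenobarbital 5 mg/kg replicate 1, and 7.60 to 7.92 in the other samples. Cxcl10 read 4.66 in PCB126 0 mg/kg replicate 3 (others 4.90 to 4.99), 3.91 in BDE-47 0.1 mg/kg replicate 5 (others 4.65 to 4.80) and 5.03 in DE-71 0.1 mg/kg replicate 2 (others 4.72 to 4.80). Ccl5 read 7.52 in BDE-47 15 mg/kg replicate 4, where the others ran from 5.71 to 6.20. Prf1 read 3.46 in BDE-47 0 mg/kg replicate 5, where the others ran from 4.21 to 4.35.

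The responses to 50 mg/kg differed between DE-71 and BDE-47 for Ccl5 by 1.98 and for Prf1 by 1.26 on the log2 scale, with adjusted p = 0.0079 and 0.0055 in limma for the difference itself. The members were picked on responses that make up this difference, so these p-values are no independent evidence that the agents differ.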

How the results depend on the processing

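No member's called difference changed sign. Of 220 counts of called members over the comparisons and settings, 28 moved by more than 1.5 times. With all 74 arrays as separate samples, BDE-47 50 mg/kg had 4 called members and DE-71 15 mg/kg had 2. There was 1 in each DE-71 step, from 0.1 to 15 and from 15 to 50 mg/kg. Over all genes, these comparisons had 991, 307, 227 and 54 calls, against 573, 177, 61 and 28 in the main fit. Without the arrays that are near-identical across groups, DE-71 15 mg/kg had 2 (137 of all genes) and its step to 50 mg/kg 4 (305 of all genes). PCB126 250 mg/kg, with 8 genes called in the main fit, had 0 members called with all single-gene probe sets fitted (7 probe sets called). It had 0 with a trended, robust variance (6 genes called). With genes of mean log2 of at least 5 only, 6 members remain. In that fit BDE-47 50 mg/kg had 2 (640 genes called) and the difference between DE-71 and BDE-47 at 50 mg/kg 1 (13 genes called). With only the arrays of the agents concerned, BDE-47 15 mg/kg, its step from 0.1 mg/kg, the phenobarbital step and the difference between the agents had 1 each. Over all genes they had 141, 178, 177 and 6 calls, against 117, 150, 97 and 17 in the main fit. With only the arrays of the groups compared, the member counts in the same order were 1, 1, 2 and 0, beside 96, 68, 209 and 0 genes. BDE-47 50 mg/kg had 2 (630 genes) and DE-71 50 mg/kg 3 (118 genes, against 1448 in the main fit). With array weights, BDE-47 50 mg/kg, DE-71 15 mg/kg and the phenobarbital step had 2 each, beside 971, 248 and 533 genes. Probe sets averaged by gene and a second quantile normalization moved no count of members. The causes were not tested.

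Samples were not paired by replicate number in the main fit. Of 102 pairs of same-numbered arrays of an agent, 33 had deviations correlated over 0.1 (median 0.03). The share was highest for PCB126, at 14 of 30 (median 0.07). Pairs with different numbers were not compared. With a replicate block over all 74 arrays, the block fit called 1 member for BDE-47 15 mg/kg, 4 for BDE-47 50 mg/kg, 2 for DE-71 15 mg/kg, 2 in the BDE-47 step from 0.1 to 15 mg/kg and 1 in the same DE-71 step.

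Leaving out 1 sample at a time, the counts ran from 0 to 1 for PCB126 250 mg/kg, 1 to 3 for BDE-47 50 mg/kg, 1 to 2 for DE-71 15 mg/kg, 5 to 6 for DE-71 50 mg/kg, 0 to 1 in the BDE-47 and DE-71 steps from 0.1 to 15 mg/kg, 0 to 5 in the DE-71 step from 15 to 50 mg/kg and 1 to 4 for the difference between the agents at 50 mg/kg. Phenobarbital 45 mg/kg stayed at 2 and the other counts at 0. Over all genes, DE-71 50 mg/kg had 388 to 1963 calls against 1448 with every sample, the lowest without replicate 2. Such calls were 4 to 8 for PCB126 250 mg/kg, 359 to 615 for BDE-47 50 mg/kg and 101 to 191 for DE-71 15 mg/kg. They were 90 to 179 and 22 to 187 in the BDE-47 and DE-71 steps from 0.1 to 15 mg/kg. In the DE-71 step from 15 to 50 mg/kg they were 1 to 531. The difference between the agents at 50 mg/kg had 2 to 71, and phenobarbital 45 mg/kg had 233 to 356. The arrays give no detection calls, so how far Prf1, Gzmb, Nkg7 and Ccl2 stand above background is not known here. The same holds for the list genes Ccr1, Klrd1, Klrb1a and Rhag. Their group means lay below the lowest array median in the comparisons where they were called.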
